A study of Mus musculus with 8 samples.

Results

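The 9 genes described here mark the epithelium of the mouse uterus. Foxa2 and Cxcl15 are of the glands, Wnt7a, Msx1, Klf5 and Ihh mainly of the luminal lining, and Epcam, Cdh1 and Sox17 of uterine epithelia in general. They were taken by symbol from the 23282 gene rows of the count files, and each symbol had 1 row. The series holds 8 libraries of 3' end RNA sequencing (QuantSeq), 4 of uterus and 4 of liver, 1 per treatment and tissue. All animals were female mice of the outbred CD-1 stock, 6 weeks old when their ovaries were removed, which takes away the main source of estrogen, and were left for 1 week before dosing. The controls were ovariectomized and got neither agent. The other groups were dosed by mouth for 7 days with BPA (bisphenol A, a building block of plastics with weak estrogenic activity), with KRG (red ginseng from Korea), or with both. The daily dose was 200 mg/kg of BPA and 1.2 g/kg of KRG. Whether a library came from 1 mouse or from pooled mice is not labelled, and each value is the level in a single library.

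The uterine lining is a single layer of luminal epithelium that folds into the stroma to form glands. FOXA2 is the forkhead transcription factor of the gland cells and is required for glands to form, and the glands secrete factors that an embryo needs to implant. WNT7A from the luminal cells acts on the tissue below and is required for glands to form as well. Indian hedgehog (IHH) is the signal through which progesterone, acting on the epithelium, reaches the stroma. Estrogen drives this epithelium to grow, and the lining becomes thin after ovariectomy.

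In the GENCODE annotation of mm10 all 9 are protein-coding genes. Foxa2 lies at chr2:148042877-148046969 (minus strand), Cxcl15 at chr5:90794534-90803067 (plus) and Wnt7a at chr6:91363981-91411363 (minus). Msx1 lies at chr5:37820485-37824583 (minus), Klf5 at chr14:99298691-99315036 (plus) and Ihh at chr1:74945315-74951672 (minus). Epcam lies at chr17:87635979-87651129 (plus), Cdh1 at chr8:106603351-106670246 (plus) and Sox17 at chr1:4490931-4497354 (minus). RefSeq promoter windows (GRCm38.p6, the build also called mm10) were found for 6 of the 9 members. Those without one were Cdh1, Sox17 and Klf5. The 250 bases before the start site are shown for Foxa2, Cxcl15 and Wnt7a. Among gland and luminal members with a mean level over the uterus libraries high enough to test, these were lowest in the uterus given both agents. The windows shown lie at chr2:148046970-148047219 (minus strand), chr5:90794284-90794533 (plus strand) and chr6:91411354-91411603 (minus strand). For Foxa2 the window of the most upstream of its 3 listed starts is given. Capitals mark every match, on either strand, to any of 6 motifs: GGTCA, the core bound by the estrogen receptor, the estrogen response element (that core followed, after any 3 bases, by its reverse complement), the forkhead core TGTTTNC, the GC box GGGCGG, the SOX core ACAAT and the TATA box TATAAA.
Foxa2: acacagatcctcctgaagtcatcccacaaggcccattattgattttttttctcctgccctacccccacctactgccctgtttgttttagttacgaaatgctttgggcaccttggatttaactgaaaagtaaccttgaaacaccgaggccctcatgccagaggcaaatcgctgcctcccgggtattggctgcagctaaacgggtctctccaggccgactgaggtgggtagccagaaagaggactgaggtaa
Cxcl15: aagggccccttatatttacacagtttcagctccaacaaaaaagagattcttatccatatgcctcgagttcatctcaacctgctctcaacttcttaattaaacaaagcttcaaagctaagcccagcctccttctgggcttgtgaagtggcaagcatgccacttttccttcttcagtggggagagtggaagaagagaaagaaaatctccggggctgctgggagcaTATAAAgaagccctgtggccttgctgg
Wnt7a: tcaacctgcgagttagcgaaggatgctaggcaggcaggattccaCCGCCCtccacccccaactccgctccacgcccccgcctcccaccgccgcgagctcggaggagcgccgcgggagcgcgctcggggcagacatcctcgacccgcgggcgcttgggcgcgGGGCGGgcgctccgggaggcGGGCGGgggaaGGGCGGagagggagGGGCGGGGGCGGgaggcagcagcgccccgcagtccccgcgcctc

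The 3 windows have little in common in these letters. The Wnt7a window is 77.6% G and C and holds 6 GC boxes, 2 of which stand end to end, whereas the Foxa2 window (50.8%) holds a match to none of the 6 motifs. The Cxcl15 window (46.4%) holds a TATA box close to its start site. The median G and C content over all 32851 windows of the same length was 52.4%. GC boxes occurred in 32.7% of those windows, TATA boxes in 12.4%, GGTCA in 35.2%, the full response element, which contains it, in 0.0639%, the forkhead core in 17.8% and the SOX core in 27.7%. GGTCA occurred in the windows of Msx1 and Epcam. A match is a description of the letters only.

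Uterus libraries held 12990417 to 14797515 counts and liver libraries 12372073 to 15290950. The unit CPM is a count relative to the library's total, and 4 values in a row run control, BPA, KRG, both agents. A QuantSeq count stands for about 1 transcript whatever its length, so levels of different genes are set side by side as CPM. Intervals are 95% and cover counting error only, not differences between animals or between library preparations. Reads that carry no molecular identifier may copy the same molecule, which would make these intervals too narrow. The uterus libraries also differed in transcripts of other cell types. A list of 10 bladder lining genes summed to 440.04, 6189, 126 and 10638 CPM, with Upk1a at 91.3, 1693, 43.3 and 3174 CPM. A list of 6 liver genes summed to 669, 42.3, 1428 and 55.3 CPM, with Alb (albumin) at 239, 4.81, 407 and 2.09 CPM. The adipocyte list (4 genes) summed to 2619, 2991, 8742 and 3420 CPM and the neutrophil list (6 genes) to 333, 204, 1270 and 205 CPM. None of the genes of these 4 lists was at 0 in any uterus library, and their part in the results below was not tested except where a value is given. The uterine stroma genes Hoxa10 (149, 125, 134 and 99.9 CPM) and Hoxa11 (124, 128, 74.8 and 75.7 CPM) were present throughout.

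Of the gland members, Foxa2 was clearly lower in the 2 uteri given BPA. It stood at 62.6 CPM in control, 17.3 with BPA, 41.3 with KRG and 16.8 with both. The 2 libraries with BPA lay at nearly the same level, and both lay far below the 2 without it. BPA was 3.61-fold lower than control (95% counting interval 3.12 to 4.19), and both agents 2.47-fold lower than KRG (2.12 to 2.88). Ginseng alone was 1.51-fold lower than control (1.36 to 1.69), while adding ginseng to BPA left a ratio of 0.966 (0.806 to 1.16). In a bulk sample, fewer gland cells and less Foxa2 RNA per cell cannot be told apart.

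Cxcl15 encodes a chemokine secreted by uterine glands and lung epithelium. Its levels were 38.4, 20.7, 14.7 and 6.42 CPM. It was highest in control and lowest with both agents, and unlike Foxa2 it was lower with KRG than with BPA. Against control it was 1.86-fold lower with BPA (1.60 to 2.15), 2.61-fold lower with KRG (2.21 to 3.10) and 5.98-fold lower with both (4.80 to 7.53). The library given both stood 3.22-fold below BPA alone (2.55 to 4.11) and 2.29-fold below KRG alone (1.78 to 2.96), so that each agent went with a lower level whether or not the other was given. Summed, the 2 gland members stood at 101 CPM in control, 38.04 with BPA, 56.04 with KRG and 23.2 with both. The sum was 2.66-fold lower with BPA than in control (2.40 to 2.94) and 4.36-fold lower with both (3.87 to 4.92).

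**Figure D1:**
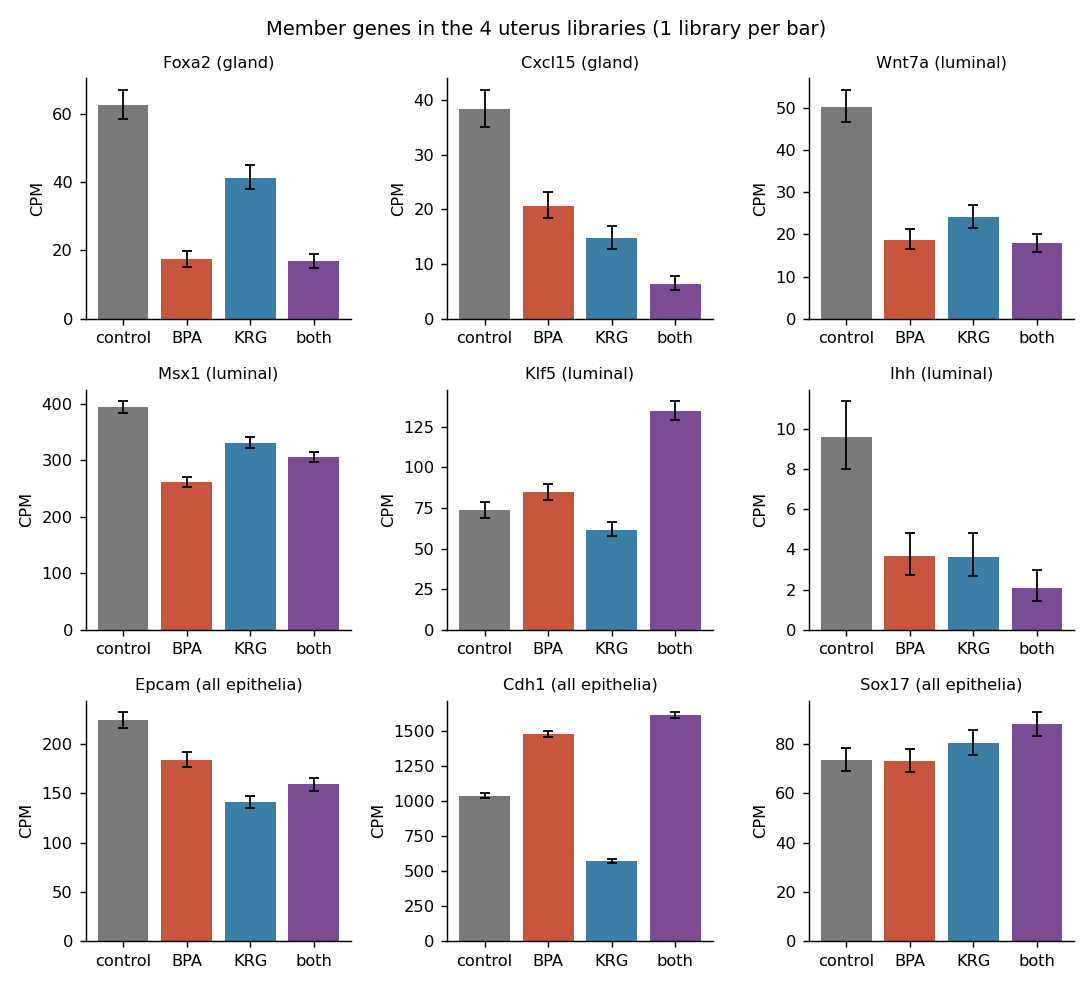
CPM (vertical axis, from 0) of each of the 9 genes in the control, BPA, KRG and combined uterus libraries, 1 library per bar, with 95% Poisson intervals that cover counting error only. Foxa2 stands near 17 CPM in both libraries with BPA, Cxcl15 is lowest, at 6.42 CPM, in the combined library, and Klf5 and Cdh1 are highest there.

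The luminal members did not move as a group. Wnt7a, the epithelial WNT ligand, stood at 50.4, 18.7, 24.2 and 17.9 CPM. Control was the high library, and the 3 treated libraries lay close to each other. Wnt7a was 2.69-fold lower with BPA than in control (2.33 to 3.12) and 2.08-fold lower with KRG (1.82 to 2.39), but both agents against KRG gave 1.35-fold (1.14 to 1.60). With TMM scaling the KRG ratio was 1.91-fold lower, under the 2-fold mark. Ihh stood at 9.56, 3.64, 3.62 and 2.09 CPM, from 128, 50, 47 and 31 counts, and likewise had control as its one high library. It was 2.62-fold lower with BPA (1.88 to 3.72), 2.64-fold lower with KRG (1.88 to 3.78) and 4.57-fold lower with both (3.06 to 7.00).

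Msx1 and Klf5, the other luminal members, gave other patterns. Msx1, a homeobox factor of the luminal epithelium that is needed for implantation, was the most abundant of the 4, at 394, 262, 330 and 305 CPM. Its largest ratio was that of BPA to control, 0.665 (0.637 to 0.694). Klf5, a zinc finger factor of the luminal epithelium that is also made in the bladder lining and other epithelia, stood at 73.6, 84.8, 61.7 and 135 CPM. The combined library was the high one, 2.19-fold above KRG (2.01 to 2.38) and 1.59-fold above BPA (1.48 to 1.71). The sum of the 4 luminal members, of which Msx1 made up most, was 527, 369, 420 and 460 CPM. It was 1.43-fold lower with BPA than in control (1.38 to 1.48), against the 2.66-fold of the gland sum. Msx1, Klf5 and Ihh are also described in glands, so these sums do not separate luminal from gland cells. Wnt7a alone, in place of the 4, gave 2.69-fold lower.

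The members found in all uterine epithelia differed from each other too. Epcam, an adhesion protein of nearly every simple epithelium, stood at 224, 184, 141 and 159 CPM. Control was highest and KRG lowest, with a ratio to control of 0.629 (0.593 to 0.667). Cdh1, E-cadherin of the junctions between epithelial cells, stood at 1039, 1478, 572 and 1616 CPM. It was high in the 2 libraries with BPA and low with KRG, 1.42-fold above control with BPA (1.39 to 1.45) and 2.82-fold above KRG with both (2.75 to 2.90). Sox17, a transcription factor of uterine epithelium that is also made by endothelium, varied least, at 73.7, 73.2, 80.7 and 88.2 CPM. The ratio of BPA to control was 0.994 (0.910 to 1.09), and that of both agents to KRG was 1.09 (1.01 to 1.19). The endothelium list (11 genes) summed to 458, 402, 389 and 366 CPM, with Pecam1 at 156, 111, 132 and 126 CPM.

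By log2(CPM + 1) ratio, 3 of the 9 members were at least 2-fold lower with BPA than in control (Foxa2, Wnt7a and Ihh) and 0 at least 2-fold higher. Over the 9198 gene rows with a mean of at least 10 CPM in uterus, 1.64% were that much lower and 3.04% that much higher. Ihh lay under that mean and is not among those rows, while the other 8 members are. The median log2 ratio of the 9 was -0.59, beside 0.03 over all rows tested. With KRG against control 3 members (Cxcl15, Ihh and Wnt7a) were at least 2-fold lower and 0 higher, with 1.67% of all rows lower and 2.16% higher. The median of all rows in this pair was -0.12 with column totals and near 0 with TMM scaling (0 to 2 decimals), which left 2 members. With both agents against KRG, Foxa2 and Cxcl15 were at least 2-fold lower (4.64% of all rows) and Cdh1 and Klf5 at least 2-fold higher (6.94%). Cxcl15 alone was at least 2-fold lower with both against BPA (2.17%), and 0 members were higher (1.04%). With both against control, 4 members (Cxcl15, Foxa2, Ihh and Wnt7a) were at least 2-fold lower (3.66%) and 0 higher (5.1%).

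The pairs BPA against control and both against KRG share no library, and in each the first library had BPA and the second did not. Foxa2 was the 1 member at least 2-fold lower in both pairs, as were 1.12% of all rows. In 3 members (Foxa2, Wnt7a and Msx1) both libraries with BPA lay below both without it, as in 17.7% of all rows. In 2 members (Klf5 and Cdh1) both lay above, as in 28.1% of all rows, so that the second share is no more than that of all rows. Libraries with KRG both lay below the 2 without it in 3 members (Cxcl15, Ihh and Epcam; 22.1% of all rows) and above them in 1 (Sox17; 8.16%). For Ihh the gap was 3.62 against 3.64 CPM, far inside the counting error.

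**Figure D2:**
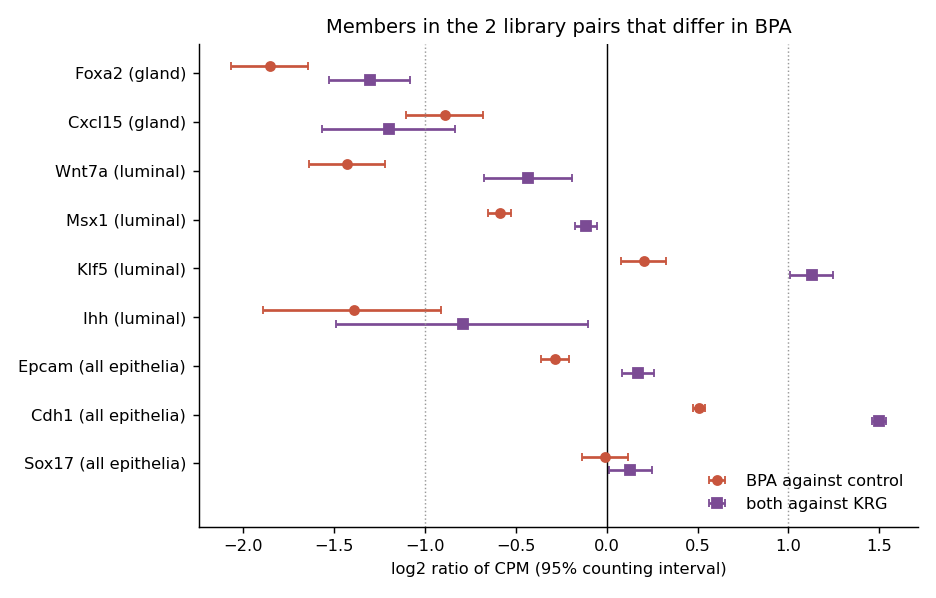
log2 ratio of CPM (horizontal axis) of each gene in the 2 pairs of uterus libraries that differ in BPA, BPA against control (circles) and both agents against KRG (squares), with 95% counting intervals and dotted lines at a 2-fold difference. Foxa2 lies beyond the lower 2-fold line in both pairs, and Klf5 and Cdh1 lie above 0 in both.

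A model with a BPA and a KRG term over the 4 uterus libraries (edgeR's quasi-likelihood test, Benjamini-Hochberg adjustment over 9198 rows, 1 residual degree of freedom) compares the 2 libraries with an agent to the 2 without it. Foxa2 fell with BPA, by 1.64 on the log2 scale (SE 0.24, adjusted p = 0.0331), and was lower in both BPA libraries. It was the 1 called member of 8 tested, where 0.891% of all rows were called lower and 1.33% higher (82 and 122 rows, or 48 and 43 with column totals in place of TMM). DESeq2, which called 1.53% of rows lower and 2.98% higher, also called it (adjusted p = 0.00026). The edgeR call was lost with column totals (adjusted p = 0.0802). With the KRG term left out of the model, the adjusted p was 0.0683 without the control library, 0.084 without BPA, 0.179 without both agents and 0.0298 without KRG. Each group holds 1 library, so the model with both terms takes as error how far the differences of the 2 agents fail to add up. No spread between repeats of a group enters its p-values, and the labels do not say that these libraries are separate animals.

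The other members did not pass this test for BPA. Cxcl15 had a log2 difference of -1.10 (SE 0.25, adjusted p = 0.131), Wnt7a of -0.99 (SE 0.29, adjusted p = 0.227) and Cdh1 of 0.94 (SE 0.28, adjusted p = 0.232). Leaving out 1 library, with the KRG term dropped, moved the differences of Cxcl15 (-2.05 to -0.22), Wnt7a (-1.45 to -0.49), Cdh1 (0.59 to 1.35) and Klf5 (0.24 to 0.97). The smallest values came without control for Cxcl15 and Wnt7a, without KRG for Cdh1 and without both agents for Klf5. DESeq2 called Cdh1 higher (adjusted p = 0.0464). Klf5, Msx1, Epcam and Sox17 had edgeR adjusted p of 0.407, 0.474, 0.863 and 0.998. Ihh, which enters with a filter of 1 CPM, had a log2 difference of -1.17 (SE 0.38, adjusted p = 0.273). For KRG, edgeR called 0 rows higher and 0 lower, and 415 of the 9198 rows tested had an unadjusted p below 0.05. DESeq2 called 13 higher (0.141%) and 11 lower (0.12%), of which 0 were members. The largest KRG difference of a member was that of Cxcl15, at -1.44 (SE 0.26, edgeR adjusted p = 0.834).

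Ratios between genes within a library do not depend on library scaling. What part of the Epcam counts came from bladder lining was not tested. Per Epcam count, the Foxa2 counts were 0.279 in control (0.258 to 0.301), 0.0941 with BPA (0.082 to 0.108), 0.293 with KRG (0.266 to 0.323) and 0.105 with both (0.0921 to 0.12). The 2 libraries without BPA gave overlapping intervals, as did the 2 with it, and the lower pair stood far below the upper. The 1.51-fold lower CPM with KRG alone thus came with an Epcam level 1.59-fold lower. Wnt7a per Epcam was 0.225, 0.102, 0.171 and 0.113, also lower in the 2 libraries with BPA but with KRG between. Cxcl15 per Epcam (0.171, 0.112, 0.104 and 0.0404) and Ihh per Epcam (0.0426, 0.0198, 0.0256 and 0.0132) were lower with either agent and lowest with both.

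The remaining members gave no 2-fold drop against Epcam. Msx1 per Epcam was 1.75, 1.42, 2.34 and 1.92, and Sox17 per Epcam 0.328, 0.397, 0.572 and 0.554, each higher in the libraries with KRG. Klf5 per Epcam was 0.328, 0.46, 0.437 and 0.847, and Cdh1 per Epcam 4.63, 8.02, 4.06 and 10.2. Foxa2, Wnt7a and Ihh were at least 2-fold lower per Epcam with BPA than in control, which makes 3 of the 8 members other than Epcam, beside 1.25% of all rows. Per Cdh1 count, which was itself higher with BPA, 5 members were that much lower, beside 6.72% of all rows. Per count of the keratins Krt8 and Krt18 the share of all rows was 41.7%, so that denominator says little about the members. Krt8 (71.4, 148, 63.6 and 222 CPM) and Krt18 (440, 848, 432 and 1186 CPM) were high in the libraries with BPA, as Cdh1 was.

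**Figure D3:**
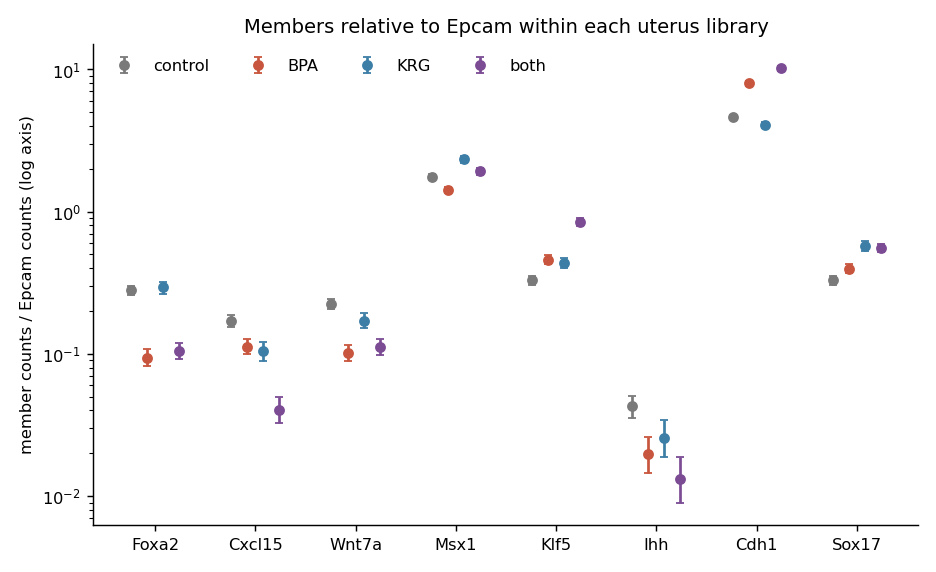
Counts of each gene per Epcam count (vertical axis, logarithmic) within the control, BPA, KRG and combined uterus libraries, with 95% intervals that cover counting error only. For Foxa2 the control and KRG points lie together at 0.279 and 0.293, above BPA and both at 0.0941 and 0.105.

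Markers of the bladder lining moved with the members that were high. All 10 genes of that list had a mean of at least 10 CPM. With BPA against control, 9 of them were at least 2-fold higher and none lower, beside 3.04% and 1.64% of all rows. The median log2 ratio of the list was 3.998. The counts of list genes were the same with both agents against KRG, beside 6.94% and 4.64% of all rows, with a median of 6.10. Their summed level lay between 126 and 440.04 CPM in the libraries without BPA and between 6189 and 10638 in those with it. Cdh1, Klf5, Krt7 (35.04, 257, 37.2 and 398 CPM) and Krt8, which the bladder lining also makes, were likewise highest in the combined library. The part of these transcripts in the levels of Cdh1, Klf5 and Epcam was not tested. Of the 18 other genes of the list of all epithelia, 3 were at least 2-fold higher with BPA than in control and none lower. The shares of all rows were 3.04% and 1.64%, and the median log2 ratio of the 18 was 0.35. With both agents against KRG, 11 were higher and none lower, beside 6.94% and 4.64% of all rows, with a median of 1.22.

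Like Foxa2, which liver also makes, liver transcripts were lower in the 2 uterus libraries with BPA. Between control and KRG they went the other way, higher with KRG where Foxa2 was lower. The 5 liver genes other than Ttr summed to 594, 12.2, 1262 and 7.64 CPM in uterus, high in the 2 libraries without BPA. These sums are 1.72%, 0.0374%, 3.72% and 0.0223% of the levels in the liver library of the same treatment. The same shares of the liver level of Foxa2 come to 1.40, 0.0179, 1.24 and 0.0308 CPM, beside the 62.6, 17.3, 41.3 and 16.8 CPM measured in uterus. For Cdh1 they come to 3.77, 0.0833, 4.26 and 0.0276 CPM.

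**Figure D4:**
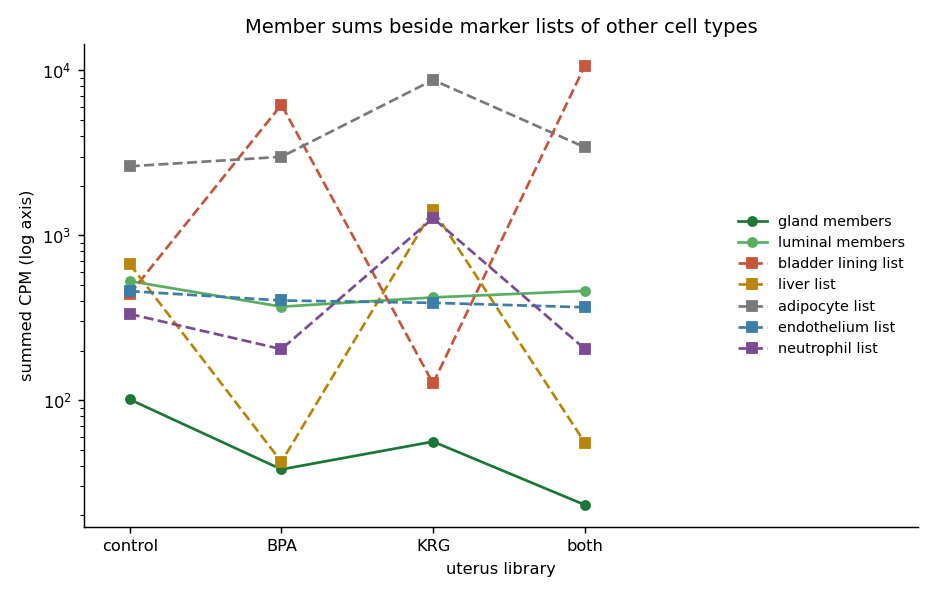
Summed CPM (vertical axis, logarithmic) in the 4 uterus libraries of the 2 gland members and 4 luminal members (solid lines) and of marker lists of other cell types (dashed lines); lines join the libraries only to guide the eye. The bladder lining list is at 6189 and 10638 CPM in the 2 libraries with BPA, where the gland sum is 38.04 and 23.2 CPM.

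Other gland and luminal markers gave few values to set beside the members. Of the gland markers Lif, Spink1, Prss28 and Prss29, which are high around implantation, the highest level in uterus was 1.08 CPM. Ttr and Aldh1a1 are made in uterine glands and in liver, and were high with the liver transcripts, Ttr at 75.2, 30.02, 166 and 47.7 CPM and Aldh1a1 at 67.3, 45.8, 105 and 34.8 CPM. Of the luminal markers, Lpar3, a lysophosphatidic acid receptor, stood at 16.4, 10.3, 11.9 and 11.02 CPM. Calb1, a calcium-binding protein of the lining, stood at 59.3, 41.1, 48.5 and 27.4 CPM. Both were highest in control, as Wnt7a was, with smaller ratios.

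Of the hedgehog pathway that Ihh feeds, Gli1, a transcription factor and target of hedgehog signalling, stood at 80.7, 53.8, 27.6 and 34.1 CPM, highest in control and lowest with KRG. Of the 5 genes of the list with at least 10 CPM, it alone was at least 2-fold lower with KRG than in control. None of the 5 were higher, beside 1.67% of all rows lower and 2.16% higher. The median log2 ratio of the 5 was -0.34, beside -0.12 over all rows. With BPA 0 were lower and 0 higher (median -0.33), beside 1.64% and 3.04% of all rows. Smo, the signal transducer, stood at 64.4, 49.9, 45.9 and 38.2 CPM, and Nr2f2, a stromal factor downstream of IHH, at 588, 530.1, 464 and 355 CPM. Hhip, a hedgehog target and inhibitor that lay under a mean of 10 CPM, stood at 3.51, 20.3, 1.46 and 8.18 CPM, higher with BPA than in control where Gli1 was lower. Gli3, also under that mean, was likewise higher with BPA, at 13.3 CPM against 6.13 in control. The receptor gene Ptch1 was at or under 0.747 CPM in all 4 libraries.

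In the Wnt list, 15 of 23 genes had at least 10 CPM. With BPA against control none were at least 2-fold higher or lower (median log2 ratio 0.19), and the same held with KRG against control (-0.49). Of all rows, 3.04% were higher and 1.64% lower with BPA, and 2.16% and 1.67% with KRG. With both against KRG 4 were higher (Wnt7b, Wnt5a, Wnt4 and Fzd6) and 1 lower (Rspo3), beside 6.94% and 4.64% of all rows. With both against BPA none were higher and 4 lower, beside 1.04% and 2.17% of all rows. With both against control 2 were higher and 4 lower, beside 5.1% and 3.66%. Wnt7b, the ligand most like Wnt7a, stood at 24.8, 47.4, 17.4 and 91.6 CPM, with the combined library high, whereas Wnt7a was lowest there. Wnt4 and Wnt5a, ligands of the stroma among other cells, stood at 18.7, 28.3, 12.3 and 40.4 CPM and at 56.3, 97.7, 29.3 and 113 CPM.

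Of 12 genes of the estrogen and progesterone response, 7 had at least 10 CPM. With BPA against control 2 were at least 2-fold lower (Ltf and Greb1) and 1 higher (Bmp2), beside 1.64% and 3.04% of all rows. The median log2 ratio was -0.52. With both against control 5 were lower and 1 higher, beside 3.66% and 5.1% of all rows (median -1.13). The progesterone receptor gene Pgr stood at 121, 75.2, 78.9 and 49.3 CPM, highest in control and lowest with both, as Ihh and Cxcl15 were. Areg, an epithelial target of progesterone, stood at or under 0.292 CPM in every uterus library.

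The genes most like Foxa2 over the 4 uterus libraries, by root mean square distance of the centred log2(CPM + 1) profiles, were Il17rb (distance 0.08), Padi1 (0.16), Tcf23 (0.26), Lypd2 (0.26) and Ces1e (0.26). Il17rb stood at 39.9, 9.84, 24.7 and 11.1 CPM and Padi1 at 107, 35.5, 62.1 and 32.1 CPM. Those nearest to Wnt7a were Ung (0.09), Galnt12 (0.13), Mcm3 (0.14), Arl4c (0.15) and Rassf10 (0.15), and those nearest to Epcam were Tmem173 (0.02), Nmi (0.04), Crtc3 (0.04), Stx3 (0.04) and Etv5 (0.04). Among the members, Wnt7a was the one nearest to Foxa2 (distance 0.35, with 25 rows nearer) and Cdh1 the farthest (1.27). With 4 libraries many profiles lie close together, and likeness is no more than that.

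In liver, 7 of the 8 tested members were lower than in uterus and Foxa2 was higher. Foxa2, which hepatocytes use too, stood at 80.9, 47.9, 33.3 and 138 CPM in liver, so that the uterus levels lay 1.95 lower on the log2 scale in a model of tissue and treatment over all 8 libraries (SE 0.58, edgeR adjusted p = 0.0235). The ranges overlapped, with liver at 33.3 to 138 CPM and uterus at 16.8 to 62.6. The call was lost without the BPA library of liver (adjusted p = 0.0931), without that of uterus (0.0958) and with column totals (0.125). With column totals the log2 difference was -1.09, and those of the other tested members were higher too, as for Cdh1 at 2.76 in place of 1.91. Mean CPM gave a 2.17-fold higher level in liver. Liver Foxa2 was lower with each agent alone than in control, and highest with both, an order not seen in uterus.

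The other 7 tested members separated the tissues without overlap. Msx1 was 8.88 higher in uterus on the log2 scale (SE 0.29, edgeR adjusted p = 5.12e-05), Klf5 6.31, Epcam 5.22, Sox17 4.98 and Cdh1 1.91 (SE 0.32, adjusted p = 0.00264). All 5 were called, as was Wnt7a at 6.63 (SE 0.74). Cxcl15 had 0 counts in each liver library, so that its lowest uterus level, 6.42 CPM, was at least 26.5-fold higher than the 3-count floor of any liver library. Over all 9941 rows tested, 39.7% were called higher in uterus and 33.4% lower (3943 and 3325 rows, or 6299 and 1817 with column totals). DESeq2 called 38.9% higher and 37.8% lower, with the same number of members each way. Ihh, at 0.323 to 2.26 CPM in liver and thus overlapping its uterus levels, was tested with a filter of 1 CPM and was not called (log2 difference 1.23, SE 0.54, edgeR adjusted p = 0.0839).

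**Figure D5:**
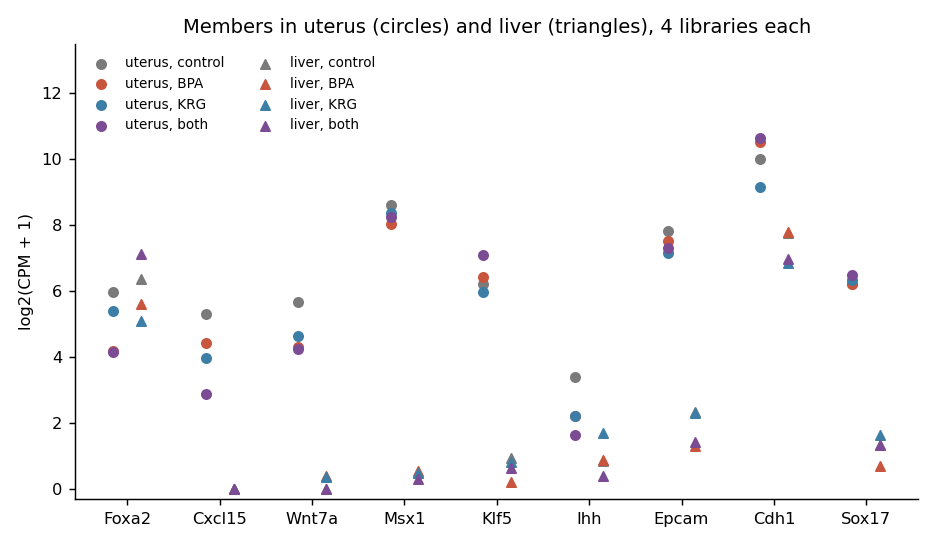
log2(CPM + 1) (vertical axis) of the 9 genes in the 4 uterus libraries (circles) and 4 liver libraries (triangles), coloured by treatment. The highest Foxa2 point is a liver, the tissues overlap for Foxa2 and Ihh, and Cxcl15 lies at 0 in all 4 livers.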

How the data were processed

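Each library's deposited file gives unnormalized counts for every gene row, as whole numbers. Libraries were made from 500 ng of total RNA with the QuantSeq kit, per the labels' protocols. Bowtie2, edgeR and mm10 are listed, per the submitters' processing notes. How counts were made, with what use of strand and of reads with several matches, is not given in the sources used here. Rn45s, the ribosomal RNA precursor, took 8.62% to 11.3% of the uterus counts and stayed in the totals. CPM used column totals. Ratios of CPM carry exact Clopper-Pearson intervals given the sum of both counts, levels exact Poisson intervals, and 2-fold calls used log2(CPM + 1). Fits used edgeR 4.0.16 with TMM (DESeq2 1.42.0 as an alternative) in R 4.3.3 on rows with a mean of at least 10 CPM, and the SE is the log2 difference over the root of its F statistic. The BPA and tissue fits were also run on simulated counts with a set spread and no joint effect of the agents. That run does not show how the fits behave on these libraries. With 1 library per group no pair of libraries was tested. The 44 rows that repeat a symbol were kept apart. The members, the marker and pathway lists, the rule for named genes (all members, up to 4 genes of a list by size of ratio, and the 5 nearest profiles to Foxa2, Wnt7a and Epcam) and the alternatives were chosen with earlier results of these data known. Genes named outside that rule were chosen after their values were seen.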

Additional observations from a re-analysis of the deposited data

Results flagged for a closer look

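In 4 members 1 agent went with opposite directions depending on whether the other was given, with counting intervals on opposite sides of 1 when scaled to column totals. The difference itself was not tested, since each group holds 1 library. The share of all gene rows that meet the same rule was not counted, so the 4 members cannot be set against it. Counting intervals are narrow for genes with many counts. Epcam was 0.822 times control with BPA and 1.13 times KRG with both agents. For KRG, the ratio to control and the ratio of both agents to BPA were 0.839 and 1.17 for Msx1, 0.838 and 1.59 for Klf5, and 0.551 and 1.09 for Cdh1. With TMM factors the interval of Klf5 for KRG over control (0.833 to 1.01) and that of Epcam for both agents over KRG (0.998 to 1.13) included 1, while those of Msx1 and Cdh1 stayed on opposite sides.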

How the results depend on the processing

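Foxa2 lay lower with BPA under all 11 settings of the model (log2 difference -1.86 to -1.37, adjusted p 0.00026 to 0.179) and was called in 7. Members called lower for BPA numbered 0 with column totals and 0 to 1 when 1 library was left out, in place of 1, and DESeq2 called 1 higher in place of 0. For uterus against liver, members called lower numbered 0 with column totals and 0 to 1 when 1 library was left out, in place of 1. With a pseudocount of 5 CPM 1 member was at least 2-fold lower for KRG over control and 1 for both agents over KRG. The luminal sum of both agents against KRG, a ratio of 1.10, was 1.03 with TMM factors and 1.03 with DESeq2 size factors, and 0.741 with Wnt7a alone. Wnt7a alone also gave 0.372 for BPA against control and 0.956 for both against BPA, where the 4 luminal members gave 1.25. Of the members other than Epcam, 3 were at least 2-fold lower per Epcam count with BPA, 5 per Cdh1 and 5 per Krt8 and Krt18 count. Epcam itself was 2.37-fold lower per Krt8 and Krt18. Over all rows, calls for BPA (122 higher, 82 lower) numbered 274 and 141 with DESeq2, 43 and 48 with column totals, 348 and 280 with no filter, 153 and 181 with a filter of 1 CPM, and 24 to 183 and 12 to 129 when 1 library was left out. For KRG they numbered 1 and 2 with no filter. The rows at least 2-fold lower with BPA than in control came to 3.01% with a filter of 1 CPM and 2.53% with none. Those lower with KRG came to 0.902% with a pseudocount of 5 CPM and 2.58% with a filter of 1 CPM. For both agents over BPA, 1.67% were higher with a filter of 1 CPM and 1.27% lower with a pseudocount of 5 CPM. Leaving out 1 of 4 libraries with both terms in the model leaves no residual degrees of freedom, so the other term was dropped there. No paired analysis by replicate number was possible because each group holds 1 library. The tissue fit compares libraries of the same treatment, and without its treatment term Foxa2 was called too (adjusted p 0.0106). The 31 to 128 counts of Ihh limit the precision of its ratios.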

Other observations

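Close relatives of 3 members were higher in the 2 libraries with BPA, where the member was lower (genes chosen after their values were seen). Foxa1, a forkhead factor related to Foxa2 that is made in the bladder lining, stood at 0.897, 24.1, 0.154 and 41.4 CPM, against 62.6, 17.3, 41.3 and 16.8 for Foxa2. Msx2, related to Msx1, stood at 3.21, 6.85, 3.39 and 9.6 CPM. Wnt7b stood at 24.8, 47.4, 17.4 and 91.6 CPM. In all 3 the combined library was highest and both libraries with BPA lay above both without it, as in 28.1% of all rows. Foxa2, Msx1 and Wnt7a had both libraries with BPA below, as in 17.7% of all rows. Foxa1 is itself on the bladder lining list, and Msx2 lay under a mean of 10 CPM.

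Markers of neighbouring parts of the tract were low or uneven. The 5 oviduct genes summed to 9.04, 13.1, 10.01 and 6.15 CPM, with 0 of them at a mean of 10 CPM. In the squamous list, Krt14, a keratin of the basal layer, stood at 60.6, 33.6, 29.8 and 3.38 CPM and Krt5 at 86.1, 88.4, 51.9 and 92 CPM. The lowest Krt14 was in the combined library, where Cxcl15 and Ihh were also lowest. The mesothelium list summed to 109, 147, 118 and 84.6 CPM.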
